A study of Homo sapiens with 3 samples.

Results

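TAGLN2, SH3RF3, SEPTIN10, ECE1, UBE2E3, ANKRD33B, PTPRE and AZIN2 are the genes that lie at or nearest to 7 of the 10 strongest RBPJ peaks without an overlapping L3MBTL3 peak. They are 8 of 19748 protein-coding genes, and their 7 lead peaks are 7 of 2926 RBPJ peaks. The genes were chosen by the fold enrichment of the RBPJ peaks, so these folds are given as a description and were not tested. The lead peak of a gene is the RBPJ peak with the highest fold among those whose nearest protein-coding transcription start site (TSS) is that gene's. SH3RF3 is the nearest gene of 0 RBPJ peaks and was included as the host of the lead peak of SEPTIN10, so these 2 genes share 1 lead peak. All further peaks of either list inside a gene or within 50 kb of it were added.

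The peaks come from chromatin immunoprecipitation and sequencing (ChIP-seq) in MDA-MB-231, an established human breast cancer cell line of mesenchymal character, grown in serum-supplemented RPMI medium with no treatment named. The series asked where RBPJ (CBF1) and L3MBTL3 lie together on chromatin. There was 1 library with an antibody against RBPJ and 1 with an antibody against L3MBTL3. A library of input DNA is not used here. Each peak value therefore has no replicate error, the labels give 30000000 to 40000000 aligned reads per library, and the read depth behind a single peak is unknown.

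RBPJ is the DNA-binding protein through which Notch signalling acts. Without the cleaved Notch receptor it recruits corepressors, and with it an activating complex. L3MBTL3 is a reader of methylated lysine that the title of the series places on the repressive side of RBPJ, together with the histone demethylase KDM1A. The 8 genes are not among the classical Notch targets of the HES and HEY families, and their products have varied roles. TAGLN2 encodes transgelin-2, an actin-binding protein, and SEPTIN10 a septin, a GTP-binding protein of cytoskeletal filaments. SH3RF3 encodes a RING-finger ubiquitin ligase and scaffold of JNK signalling, PTPRE a tyrosine phosphatase made in a receptor and a cytosolic form, and ECE1 the membrane protease that releases active endothelins from their precursors. UBE2E3 encodes a ubiquitin-conjugating enzyme. AZIN2 encodes an antizyme inhibitor, which spares ornithine decarboxylase of polyamine synthesis, and ANKRD33B encodes an ankyrin repeat protein.

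The DNA under 6 of the 7 lead peaks is printed because the recognition words in it were not themselves used to choose the genes. The choice was by fold, and RBPJ words were more frequent at higher folds (below), so these words are not independent of the choice. Each sequence spans 100 bp to either side of the RBPJ summit, 201 bp in all, on the plus strand of GRCh37 (hg19). Capitals mark every match, on either strand, to the RBPJ core TGGGAA, to the high-affinity RBPJ words CGTGGGAA and TGTGGGAA that contain it, to the AP-1 words TGACTCA and TGAGTCA, and to the TEAD word GGAATG. A match on the minus strand reads as the reverse complement.
SH3RF3 and SEPTIN10, chr2:110075909-110076109: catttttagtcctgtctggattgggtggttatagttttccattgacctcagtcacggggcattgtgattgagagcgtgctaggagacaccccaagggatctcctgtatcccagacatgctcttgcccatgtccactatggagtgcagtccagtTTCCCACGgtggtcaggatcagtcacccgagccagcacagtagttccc
AZIN2, chr1:33592966-33593166: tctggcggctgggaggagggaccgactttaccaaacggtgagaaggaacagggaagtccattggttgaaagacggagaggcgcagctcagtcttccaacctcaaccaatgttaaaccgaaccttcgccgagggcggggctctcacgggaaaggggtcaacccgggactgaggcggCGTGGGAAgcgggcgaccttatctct
TAGLN2, chr1:159894377-159894577: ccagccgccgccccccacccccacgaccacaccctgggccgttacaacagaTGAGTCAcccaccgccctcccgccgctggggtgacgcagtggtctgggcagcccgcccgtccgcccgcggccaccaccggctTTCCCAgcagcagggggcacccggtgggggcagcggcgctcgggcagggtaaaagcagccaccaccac
ANKRD33B, chr5:10551679-10551879: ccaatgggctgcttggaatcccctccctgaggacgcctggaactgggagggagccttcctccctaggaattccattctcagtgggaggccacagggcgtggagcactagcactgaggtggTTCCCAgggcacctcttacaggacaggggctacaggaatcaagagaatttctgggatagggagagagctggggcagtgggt
PTPRE, chr10:129776027-129776227: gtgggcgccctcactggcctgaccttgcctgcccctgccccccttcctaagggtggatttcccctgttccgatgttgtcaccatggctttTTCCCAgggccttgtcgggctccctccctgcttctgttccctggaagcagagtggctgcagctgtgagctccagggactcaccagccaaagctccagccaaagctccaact
ECE1, chr1:21660885-21661085: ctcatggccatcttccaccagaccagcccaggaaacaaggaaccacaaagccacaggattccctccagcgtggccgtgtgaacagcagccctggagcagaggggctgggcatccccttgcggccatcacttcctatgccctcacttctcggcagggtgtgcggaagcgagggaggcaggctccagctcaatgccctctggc

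The RBPJ core was found in 5 of the 7 windows (71.4%, 95% Wilson interval 35.9 to 91.8), those of SH3RF3 and SEPTIN10, AZIN2, TAGLN2, ANKRD33B and PTPRE. Of all RBPJ peaks 29.5% held it, of the 1028 RBPJ-only peaks more than 1 kb from a TSS 43.7%, and of windows 2 kb to either side of the latter 17.1% (15.6 to 18.8). The interval of the lead peaks takes in the share of the RBPJ-only peaks away from promoters. The lead peaks were picked by fold and 6 of them belong to that class, so a difference was not tested. Of the 7, the peak of TAGLN2 is at a promoter. In 2 of the 5 windows the core was part of the high-affinity word CGTGGGAA. The window in SH3RF3 had it on the minus strand at 110076062 to 110076069, with its centre 56.5 bp from the summit, and that of AZIN2 on the plus strand at 33593141 to 33593148, 78.5 bp from the summit. The high-affinity words were in 28.6% of lead windows (8.22 to 64.1), against 8.51% of all RBPJ peaks and 12.9% of RBPJ-only peaks away from promoters. Both matches lay farther from the summit than the median match of the latter peaks (24.5 bp, quartiles 10.5 and 47.5). The other cores were closer: 7.5 bp from the summit at PTPRE, 22.5 bp at ANKRD33B and 35.5 bp at TAGLN2, where the median of RBPJ-only peaks away from promoters was 30.5 bp (12.5 and 55.5).

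The AP-1 word was found in 1 lead window, that of TAGLN2, where TGAGTCA on the plus strand (159894428 to 159894434) is 1 site that also reads as TGACTCA on the minus strand, 46 bp from the summit. It was in 11.2% of all RBPJ peaks and 24.8% of RBPJ-only peaks away from promoters. Of the 1770 RBPJ-only peaks at promoters, the class of the TAGLN2 peak, 3.90% held it. The TEAD word was also in 1 window, that of UBE2E3, against 13.7% of all RBPJ peaks and 25.3% of RBPJ-only peaks away from promoters. Both shares in lead peaks are 14.3% with an interval of 2.57 to 51.3, which takes in these backgrounds. ECE1 had none of the 4 kinds of word within 100 bp of its summit, as had 58.1% of all RBPJ peaks and 34.4% of RBPJ-only peaks away from promoters. Over the whole deposited intervals, 313 to 541 bp long, ECE1 also had a core, at 21661119 to 21661124 on the plus strand, 136.5 bp from its summit. Over the same intervals the TEAD word was found in 3 lead peaks, with 2 matches in SH3RF3 (117.5 and 203.5 bp from the summit) and 1 in TAGLN2 (286.5 bp) beside that of UBE2E3. UBE2E3 was thus the 1 lead peak with no core anywhere in its interval. Over their own deposited intervals, 22.0% of all RBPJ peaks had the core and 8.99% the TEAD word. Those intervals have a median of 94 bp, so the lead intervals hold more sequence and nothing is read from the interval counts.

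A high-affinity word with 1 mismatch was in 3 of 7 lead windows (42.9%, 15.8 to 74.95), in 37.4% of all RBPJ peaks and in 48.2% of RBPJ-only peaks away from promoters, and the interval takes in both shares. ECE1 had CGTGTGAA on the plus strand at 21660959 to 21660966, 22.5 bp from its summit. At ANKRD33B and PTPRE the mismatched word was CCTGGGAA, which contains their core.

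**Figure D1:**
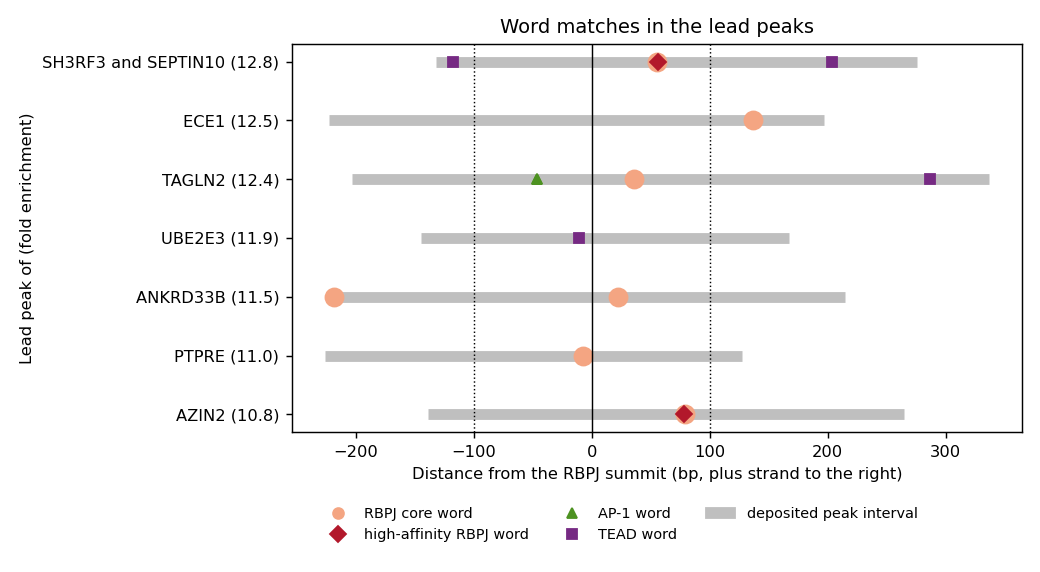
Positions of word matches in the 7 lead peaks, by distance from the RBPJ summit in bp (horizontal axis), 1 row per lead peak with its fold in parentheses. Grey bars are the deposited intervals, dotted lines mark 100 bp to either side, and between these lines the core is in 5 rows, the high-affinity word in 2, and AP-1 and TEAD words in 1 each.

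Among RBPJ-only peaks away from promoters, with the lead peaks left out, RBPJ words were more frequent at higher folds, and the lead peaks were set beside these ranges. The core was in 35.5% of 437 peaks with a fold below 5 (31.1 to 40.1), 43.9% of 360 from 5 to 6 (38.9 to 49.1), 56.6% of 189 from 6 to 8 (49.5 to 63.5) and 69.4% of 36 with a fold of 8 or more (53.1 to 82.0). The high-affinity words were in 8.24%, 12.2%, 20.1% and 36.1% of the same peaks (22.5 to 52.4 in the last). The intervals of the lowest and the highest range do not overlap for either word. The 71.4% and 28.6% of the lead peaks lie within the intervals of the highest range. The AP-1 word was in 26.1%, 23.3%, 28.0% and 11.1% (4.41 to 25.3), and the TEAD word in 25.2%, 21.9%, 31.2% and 30.6% (18.0 to 46.9). For both words the interval of the highest fold range overlaps those of the other ranges.

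**Figure D2:**
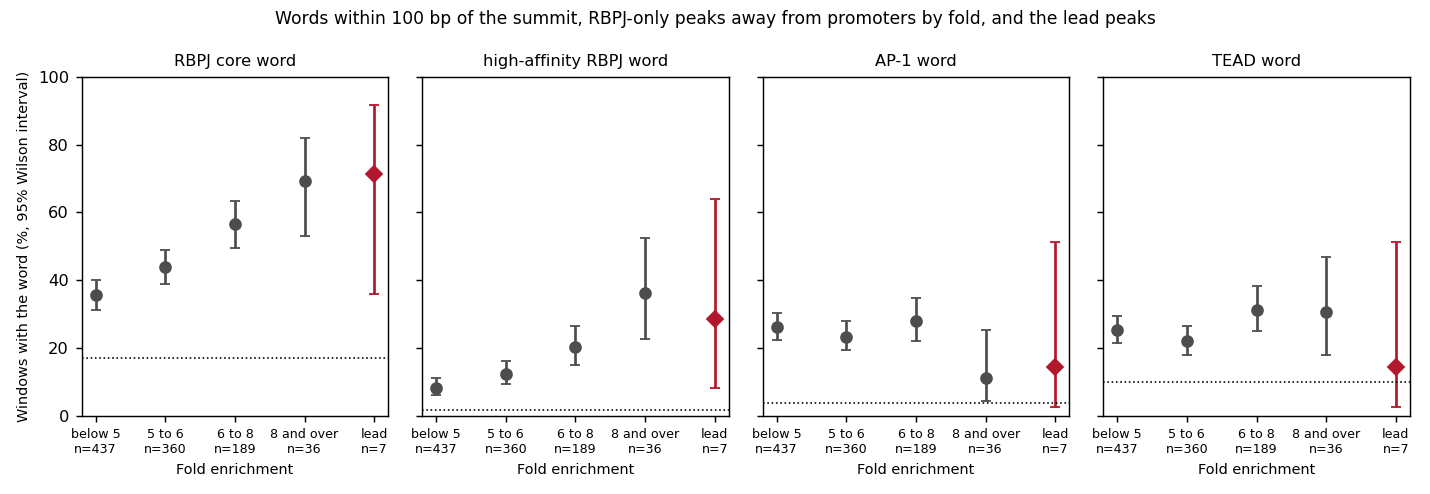
Percent of windows with each word (vertical axis, with 95% Wilson intervals) for RBPJ-only peaks away from promoters in 4 ranges of fold (grey) and for the 7 lead peaks (red diamonds). Dotted lines are windows 2 kb to either side. The core goes from 35.5% below a fold of 5 to 69.4% at 8 and over, beside 71.4% of the lead peaks.

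The folds of the 7 lead peaks ran from 10.84 to 12.85, and 0.752% of all RBPJ peaks had a fold of at least 10. The peak in SH3RF3 had a fold of 12.85 (-log10 q 21.4) and rank 4 in the RBPJ list. ECE1 had 12.5 (20.1), TAGLN2 12.4 (26.3) and UBE2E3 11.9 (18.9). ANKRD33B had 11.5 (23.2), PTPRE 10.95 (17.5) and AZIN2 10.84 (15.2). The order by q differs from that by fold: TAGLN2, with the widest lead peak at 541 bp, had the highest -log10 q, and AZIN2 was lowest by both. Widths were 313 bp (UBE2E3) to 541 bp, against a median of 94 bp over all RBPJ peaks. The peaks of other genes named next were 302 to 537 bp wide, so such widths are not particular to the lead peaks. AZIN2 was the last of the 10 strongest RBPJ-only peaks. Just below it came peaks nearest to H2BC12L (10.78), OPA3 (10.67) and EFEMP1 (10.56), so the limit of 10 peaks does not mark a gap in fold. The 3 other peaks of the 10 were nearest to ZNF91 (21.3), NR4A2 (15.02) and ARHGAP26 (11.4). The first lay in intron 4 of ZNF675, 131 kb from the ZNF91 TSS. The second lay between genes, 448 kb from the NR4A2 TSS, and the third in intron 11 of ARHGAP26, 27.8 kb from its TSS.

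**Figure D3:**
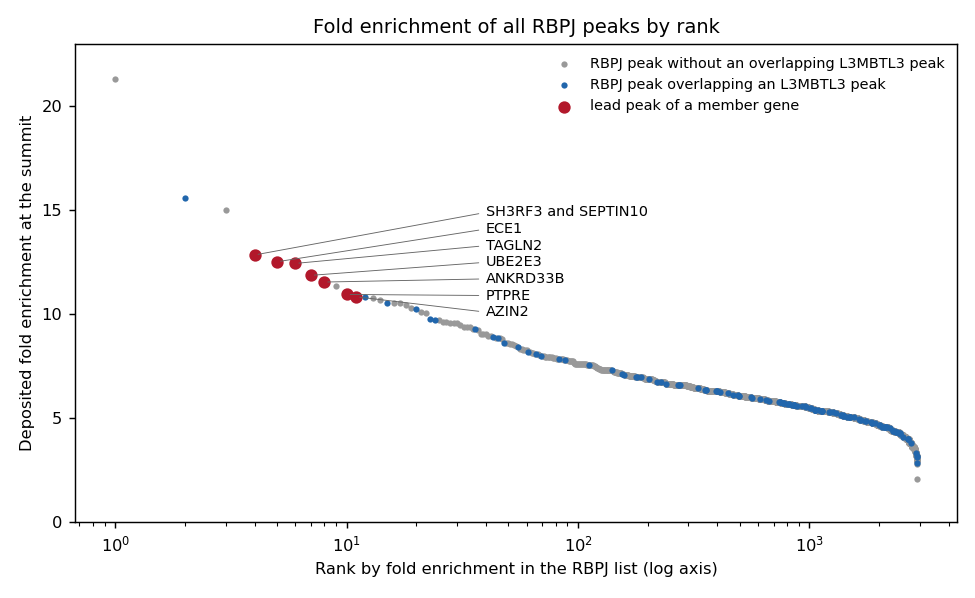
Deposited fold enrichment (vertical axis) of all 2926 RBPJ peaks by rank (horizontal log axis). The 7 lead peaks, in red, lie between 10.84 and 12.85 at ranks 4 to 11, with peaks that overlap an L3MBTL3 peak in blue.

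All 7 lead peaks lacked an overlapping L3MBTL3 peak by the rule, which holds for 95.6% of RBPJ peaks, so nothing is read from it. The distance to the nearest L3MBTL3 summit was not fixed by the rule. It was 70.6 kb for PTPRE and 1.37 Mb for UBE2E3, 1.69 Mb for ECE1, 2.68 Mb for ANKRD33B, 3.18 Mb for AZIN2, 9.14 Mb for SH3RF3 and 13.2 Mb for TAGLN2. The median of 2682 kb lies between the quartiles (555 and 6915 kb) of all RBPJ-only peaks away from promoters, whose median is 1895 kb. The L3MBTL3 list holds 444 peaks, so most RBPJ-only peaks lie far from any of them.

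Away from promoters, that is over 1 kb from any protein-coding TSS, lay 6 of the 7 lead peaks and 35.9% of all RBPJ peaks. The lead peaks were picked by fold, so this difference was not tested. The 3 other peaks of the 10 strongest RBPJ-only peaks, nearest to ZNF91, NR4A2 and ARHGAP26, also lay over 1 kb from a TSS. Of the next 3 below, those nearest to H2BC12L and EFEMP1 did too, and that of OPA3 lay at a promoter. The location is therefore not particular to the member genes. Introns of protein-coding genes held 4 of the 7 lead peaks, against 36.8% of all RBPJ peaks and 40.8% of RBPJ-only peaks away from promoters. The 4 include the promoter peak of TAGLN2, which is not in the latter class. The other 3 lead peaks were outside every annotated gene, against 30.8% of all RBPJ peaks and 35% of RBPJ-only peaks away from promoters.

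TAGLN2 (chromosome 1, 159887897 to 159895297, minus strand) was the 1 member gene with its lead peak at a promoter. The peak (159894274 to 159894814) lay in intron 1 of its canonical transcript, 820 bp downstream of the 5′ end of the gene and 136 bp upstream of an internal TSS. All 4 annotated protein-coding TSS of TAGLN2 were within 1 kb of the summit. Its window had the highest GC content of the 7 (74.6%) and a ratio of observed to expected CpG of 0.666. For RBPJ-only peaks at promoters the median GC content was 71.6% (quartiles 66.7 and 75.6) and the median ratio 0.876 (0.763 and 0.985). Within this class the GC content of TAGLN2 lay between the quartiles and its ratio below the lower one. A second RBPJ peak (159886203 to 159886257, fold 6.17, -log10 q 5.14) lay downstream of the gene, 7.29 kb from the nearest TAGLN2 TSS and nearer to AL590560.1 (6063 bp). It held a core 12.5 bp and a TEAD word 33.5 bp from its summit. TAGLN2 thus had a strong peak at its start and a weaker one past its end.

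SEPTIN10 (chromosome 2, 110300376 to 110371720, minus strand) and SH3RF3 (109745661 to 110262211, plus strand) are neighbours that share a lead peak. It lay at 110075877 to 110076285 in intron 8 of SH3RF3, 330 kb downstream of the single SH3RF3 TSS and 295 kb from the SEPTIN10 TSS, with SOWAHC, on the far side of SEPTIN10, 296 kb away. SEPTIN10 and SOWAHC are therefore equally near to within 1 kb, and distance does not separate them. SEPTIN10 also had an RBPJ peak at its promoter (110371721 to 110371781, fold 6.43, -log10 q 5.08), with its summit 14 bp upstream of the TSS. The summit was also 207 bp from the TSS of SOWAHC, so the peak lies at the promoters of both genes. This small peak of 61 bp held a TEAD word 3.5 bp from its summit and no core. SH3RF3, although 517 kb long, had no other RBPJ peak and none at its promoter. Of all genes of 100 kb or longer, 21.6% had an RBPJ peak inside them or within 50 kb.

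ECE1 (chromosome 1, 21543740 to 21672065, minus strand) has isoforms with different N-terminal ends that start from alternative promoters. Its lead peak (21660762 to 21661182) lay in intron 1 of a transcript that is not the canonical one. The summit was 11.01 kb downstream of the nearest TSS of a protein-coding transcript, at the upstream end of the gene. It was 44.03 kb upstream of the TSS of the canonical transcript. A weaker peak (21672115 to 21672177, fold 5.08, -log10 q 3.68) had its summit 73 bp upstream of the 5′ end of the gene, with none of the 4 kinds of word. The gene thus had a promoter peak of median fold and a strong intronic peak between its upstream and its internal promoters.

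PTPRE (chromosome 10, 129705367 to 129884119, plus strand) also had a weak promoter peak and a strong intronic one. Its lead peak (129775901 to 129776254) lay in intron 1 of the canonical transcript, 70.8 kb downstream of the 5′ end and 9.48 kb upstream of an internal TSS. A weak RBPJ peak (129705186 to 129705240, fold 5.04, -log10 q 2.57) had its summit 169 bp upstream of the first TSS. PTPRE was the 1 member gene with an L3MBTL3 peak inside it or within 50 kb, against 3.32% of all protein-coding genes. This L3MBTL3 peak (129705486 to 129705553, fold 5.71, -log10 q 3.09) lay in the UTR of exon 1, with its summit 318 bp from that of the RBPJ promoter peak and no overlap between them. Of RBPJ peaks at promoters 9.38% had an L3MBTL3 summit within 1 kb, and of the 1770 without overlap 3.95%. PTPRE was also the 1 member gene with an L3MBTL3 summit within 1 kb of a TSS, against 1.37% of all protein-coding genes. Neither promoter peak of PTPRE held any of the 4 kinds of word.

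UBE2E3 (chromosome 2, 181831975 to 181941312, plus strand) had the most distant lead peak. It lay between genes, 443 kb upstream of the nearest UBE2E3 TSS, with CWC22 at 517 kb on the other side. The next RBPJ peak was 1368 kb away, and UBE2E3 itself had 0 RBPJ peaks inside it or within 50 kb. The link of this peak to UBE2E3 is thus one of distance alone. The other lead peaks too were linked to their genes only by position, with no measure of expression or contact used.

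ANKRD33B (chromosome 5, 10564182 to 10657928, plus strand) had its lead peak 12.4 kb upstream of its single TSS, between genes (10551557 to 10551994). The next protein-coding TSS, that of ROPN1L, was 109.8 kb away. A weak second peak (10632486 to 10632540, fold 4.77, -log10 q 2.98) lay in intron 2 with none of the 4 kinds of word. Beside the core near its summit, the lead peak had a second core 218.5 bp away, at the far end of its interval.

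AZIN2 (chromosome 1, 33546705 to 33589093, plus strand) had its lead peak past its 3′ end, at 33592927 to 33593331. The summit was 3.97 kb beyond the gene, 45.2 kb from the nearest AZIN2 TSS and 49.1 kb from that of TRIM62, so these 2 genes are nearly equally near. The window had a ratio of observed to expected CpG of 0.861, above the upper quartile of RBPJ-only peaks away from promoters (0.663). At the other 5 lead peaks away from promoters this ratio was 0.117 to 0.307. A weak second peak (33565126 to 33565220, fold 4.08, -log10 q 1.82) lay in intron 10, with a TEAD word 54.5 bp from its summit.

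**Figure D4:**
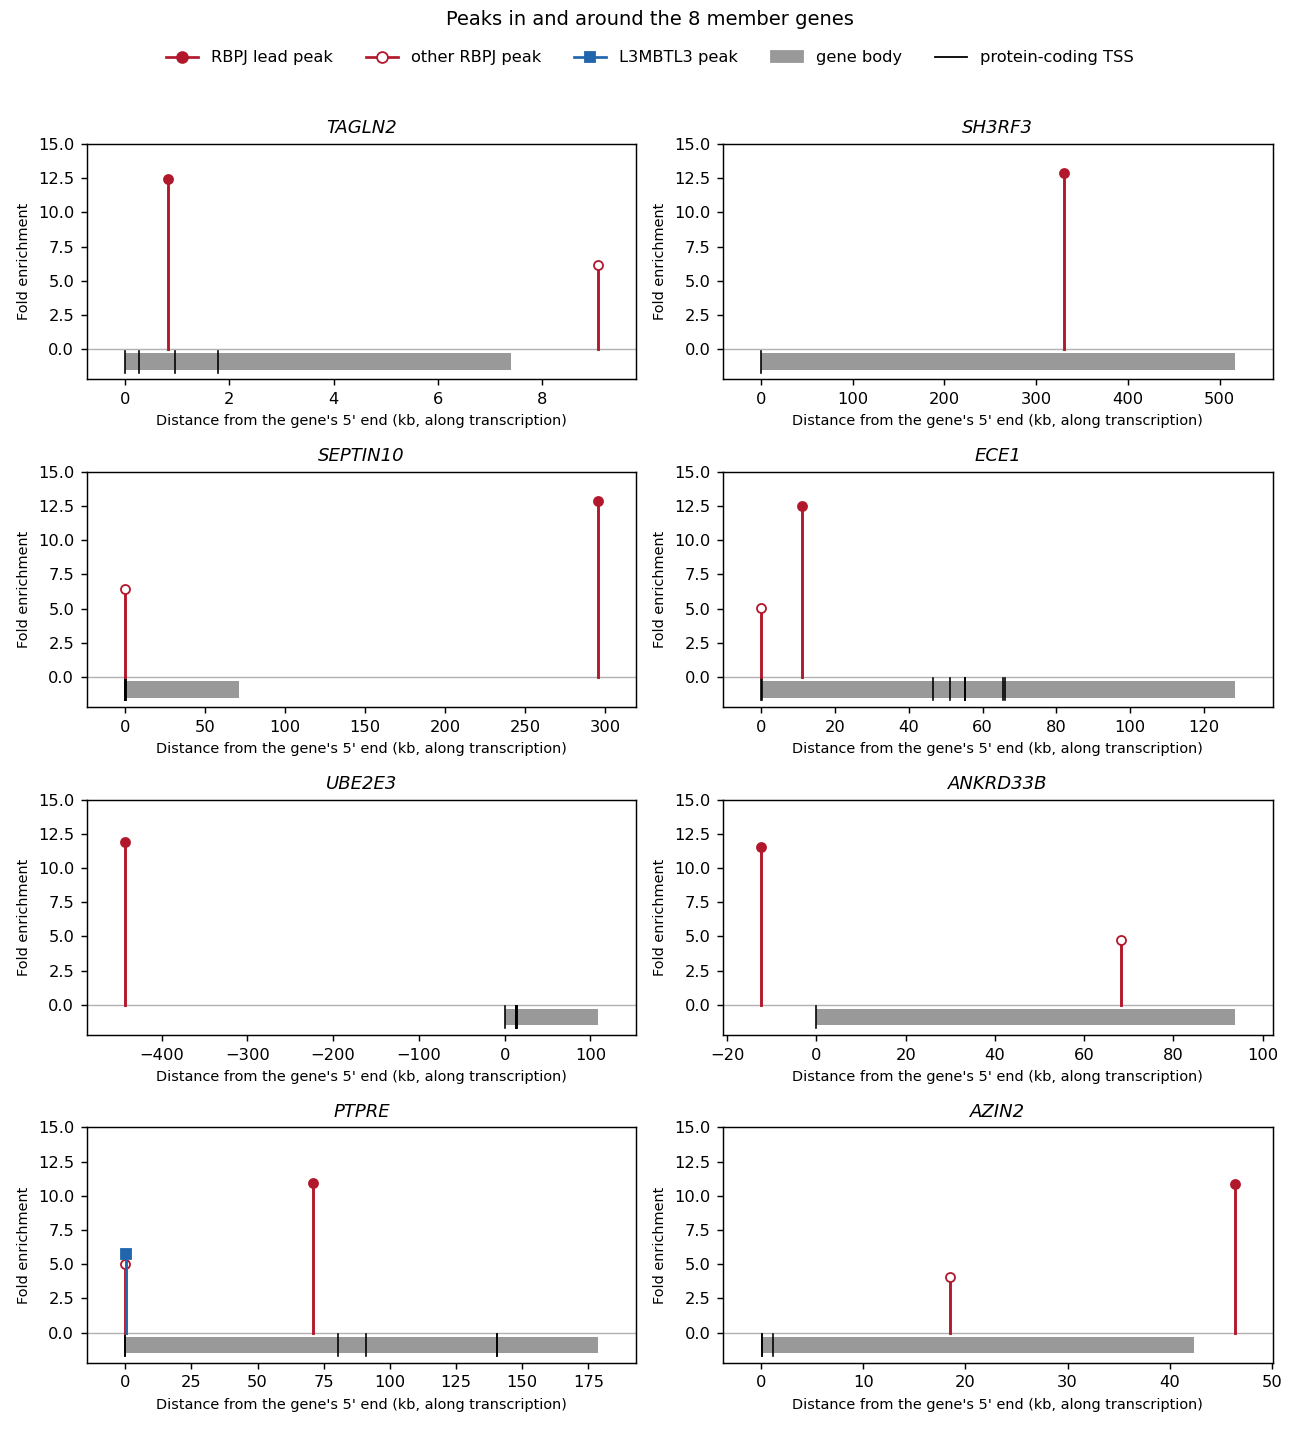
Peaks at each member gene by distance from its 5′ end in kb along transcription (horizontal axis) and deposited fold (vertical axis). Filled red circles are lead RBPJ peaks, open circles other RBPJ peaks and the blue square the L3MBTL3 peak. Lead peaks lie between 10.84 and 12.85, and the other 6 RBPJ peaks between 4.08 and 6.43.

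Together the 8 genes had 12 distinct RBPJ peaks and 1 L3MBTL3 peak inside them or within 50 kb, and the lead peak of UBE2E3 lay beyond that limit. An RBPJ peak within this distance was found for 7 of 8 genes and for 24.6% of all protein-coding genes. With the lead peaks left out it was found for 6 of 8 genes, all but SH3RF3 and UBE2E3. The genes were chosen from the same list of peaks, so nothing is read from these counts. The 6 RBPJ peaks that were not lead peaks had folds of 4.08 to 6.43, and the quartiles of the whole list were 4.53 and 5.78. A summit within 1 kb of their own TSS was found for 4 of 8 genes: TAGLN2 through its lead peak, and SEPTIN10, ECE1 and PTPRE through a second, weaker peak. The share over all protein-coding genes was 8.91%. The genes and these peaks come from the same list and the same library, so the counts were not tested. SH3RF3, UBE2E3, ANKRD33B and AZIN2 had no RBPJ peak at a promoter.

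The genes related to the members were taken from 8 lists of families and pathways. Without the members, 19 of 66 had an RBPJ peak inside them or within 50 kb (28.8%, against 24.6% of all protein-coding genes), and 8 had one within 1 kb of a TSS (12.1% against 8.91%). An L3MBTL3 peak was found for 3 (4.55% against 3.32%). These shares are near the background. In the transgelin and calponin family 2 of 5 genes had an RBPJ peak, the stronger at TAGLN (fold 5.90, 20.5 kb from its TSS but 167 bp from that of SIDT2), and none had one at its own promoter. Of 12 other septins 4 had one, led by SEPTIN9, a broadly expressed septin, with 4 peaks of folds 4.79 to 5.80. Of 5 genes of the SH3RF family and JNK scaffolds the 1 with a peak was SH3RF1, the paralogue of SH3RF3, at its promoter (7.29, 203 bp from the TSS). In the endothelin system 1 of 7 had one, EDN2, which encodes a substrate of ECE1 (4.58, 14.3 kb).

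Of 6 other E2 enzymes of the UBE2D and UBE2E families 3 had an RBPJ peak, led by UBE2D4 at its promoter (fold 9.29), where an L3MBTL3 peak (7.13) overlapped it. Of 19 other receptor-type tyrosine phosphatases 4 had an RBPJ peak, led by PTPRN (5.99), whose peak was 11 bp from the TSS of DNAJB2. PTPRM and PTPRJ had L3MBTL3 peaks. At PTPRM the L3MBTL3 summit (fold 4.26) was 147 bp from an RBPJ summit (4.33) without overlap, as at PTPRE, and at PTPRJ (4.76) the nearest RBPJ summit was 339 kb away. Of 11 other genes of polyamine metabolism 4 had an RBPJ peak, led by AZIN1, the paralogue of AZIN2 (6.87, 47.6 kb from its TSS). ANKRD33, the paralogue of ANKRD33B, had none. Among these 66 genes UBE2D4 was the only one with overlapping RBPJ and L3MBTL3 peaks.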

How the data were processed

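Peak lists of 1 RBPJ and 1 L3MBTL3 library were analysed. Per the labels' protocols, single reads of 50 cycles had adaptors removed by Trimmomatic before alignment to hg19 by BWA 0.7.15. The peak caller was MACS2, per the submitters' processing notes. Which version, cutoff and control it was run with is not given in the sources used here. The deposited fold enrichment (a ratio over local background) and the deposited -log10 p and -log10 q values were used as they stand. The deposited score is 10 times the -log10 q, truncated. Folds were described only within a list.

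Coordinates are 1-based on hg19, with sequence and genes from GRCh37 and GENCODE 44 mapped to it (19748 protein-coding genes, 78530 TSS of protein-coding transcripts). A promoter is within 1 kb of a TSS, and peaks sharing 1 bp overlap. Words were sought wholly within 100 bp of the summit with Python 3.11.15 and pysam 0.24.0, in code tested on planted words. Wilson intervals (95%) cover counting error only, and neighbouring peaks are not independent.

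The members, lists and tests were chosen with earlier results of these data known. Ranges of fold, further and mismatched words, and the search for repeated stretches were added after the data were seen. Named genes are the members, neighbours and hosts of their lead peaks, the peaks around the limit of 10, the strongest gene and every L3MBTL3 gene of each list, and peaks with the same words. The sequence at the lead peak of UBE2E3 is not reported here. No test across samples was possible with 1 library per antibody.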

Additional observations from a re-analysis of the deposited data

How the results depend on the processing

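Of 52 alternative values, 29 stayed within 1.5 times the main count or within the interval of the main share. Counting summits inside the genes only left 6 RBPJ peaks, and a -log10 q of at least 5 left 0 L3MBTL3 peaks at members and 4 related genes with an RBPJ peak. With TSS of genes of any type, 3 of 7 lead peaks (TAGLN2, ECE1 and PTPRE) stayed nearest to a member. The peak in SH3RF3 was then nearest to MIR4266, and the others to a pseudogene or to unclassified transcripts. Within 50 bp of summits 0 lead peaks had the high-affinity and 3 the core word, and TEAD was in 2 within 200 bp and in 3 over the interval. The share of all RBPJ peaks moved with the window: at 50 bp, 200 bp and over the interval it was 5.81%, 11.4% and 7.01% for the high-affinity words, 19.5%, 42.9% and 22.0% for the core, 6.80%, 16.1% and 8.24% for AP-1, and 8.17%, 22.5% and 8.99% for TEAD. At a -log10 q of at least 5 it was 17.0% (high-affinity), 44.1% (core) and 17.0% (TEAD). The windows differ in length, and the cause of the shift at higher q was not tested. No paired analysis was possible because each antibody has 1 library, so no fold has an error.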

Other observations

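Outside the member genes, RBPJ-only peaks away from promoters with the same words as the lead peaks had the following nearest genes. With a high-affinity word, as at SH3RF3 and AZIN2, the strongest were nearest to ZNF91 (fold 21.3), EFEMP1, an extracellular matrix gene (10.56, 54.8 kb from its TSS), and EVC (10.46, 47.8 kb). With the core alone, as at ANKRD33B and PTPRE, they were nearest to BHLHE40, a transcriptional repressor (9.62, 47.3 kb), AP5S1 (9.40, 8.81 kb) and MCL1, an inhibitor of apoptosis (9.40, 10.97 kb). With none of the 4 kinds of word, as at ECE1, they were nearest to ARHGAP26 (11.4), CRADD (10.32) and KLF6 (9.70, 457 kb). With the core and AP-1, as at TAGLN2, the first was nearest to VSIG8 (8.46). With TEAD alone, as at UBE2E3, the strongest were nearest to TMEM132D (8.28, 297 kb) and SULT1A4 (8.28, 8.61 kb), equal in fold.

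Of 5 further words sought on both strands (E-box CACGTG, RUNX TGTGGTT, CRE TGACGTCA, GC box GGGGCGGGG and ETS CCGGAAGT), RUNX was in 1 of the 7 lead windows, that of ECE1 (21660925 to 21660931, minus strand), and the other 4 words in none of these 7. RUNX was in 3.38% of all RBPJ peaks and 6.61% of RBPJ-only peaks away from promoters. In the same order, the E-box was in 6.87% and 5.35% and CRE in 1.57% and 0.778%. The GC box was in 21.8% and 8.85%, and ETS in 3.25% and 1.26%. With 7 windows, nothing is read from the absence of these words. Stretches of 50 bases, the read length of the libraries, were taken from the 14 member peaks. All 70 occurred exactly once in the assembled chromosomes and mitochondrial genome of GRCh37. Unplaced sequences and inexact copies were not searched.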
